A study of Mus musculus with 23 samples.

Results

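The genes described here are 9 that give spinal motor neurons their identity: the LIM-homeodomain factors Isl1, Isl2, Lhx1, Lhx3 and Lhx4, the homeodomain factor Mnx1 (also called Hb9), the forkhead factor Foxp1, the retinoic acid synthesising enzyme Aldh1a2 and the ETS factor Etv4. They were chosen by name and role, with earlier results of these data known, and all 9 were present by symbol among the 38924 genes of every library. Their ribosome-bound transcripts were counted in 23 libraries of mouse spinal cord.

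Motor neurons arise in the ventral spinal cord, where Lhx3 with Isl1 and the bridging protein Ldb1 switches on the motor neuron programme and Mnx1 holds down the genes of neighbouring interneurons. The neurons then settle into columns and pools. Foxp1 sets the limb-innervating and preganglionic columns, Lhx3 and Lhx4 persist in the column that serves axial muscle, Lhx1 marks the lateral part of the limb column, Aldh1a2 makes the retinoic acid of limb-level motor neurons, and Etv4 is turned on in certain pools by GDNF from the muscle. Several of these genes also work elsewhere: Lhx1 in interneurons, Foxp1 in many neurons and in blood vessels, and Aldh1a2 in the meninges.

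All mice were on the background labelled B6.CgxB6.129, aged 2 weeks, and all carried 1 copy of the RiboTag allele (Rpl+/- in the labels), an Rpl22 gene whose haemagglutinin-tagged form is made only after Cre recombination. ChAT-Cre, where present (Chat+/-), turns the tag on in every cholinergic cell, so that motor neurons, preganglionic neurons and cholinergic interneurons are tagged together. The Gars genotype was Gars+/+ (written C201R+/+) or GarsC201R/+ (written C201R+/-), a heterozygous dominant change in the glycyl-tRNA synthetase gene that gives a mouse model of inherited neuropathy, sampled before disease onset. Antibody against the tag was used to pull down ribosomes from whole spinal cord. The 4 groups were Gars+/+ with ChAT-Cre (wild-type Cre, 5 libraries), GarsC201R/+ with ChAT-Cre (mutant Cre, 6), Gars+/+ without Cre (wild-type no-Cre, 6) and GarsC201R/+ without Cre (mutant no-Cre, 6). No tagged protein is made without Cre, and those precipitates are background RNA. Whether the libraries of a group came from different animals is not stated in the labels, and a p-value here speaks only of how far libraries differ.

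Total expected counts per library ran from 9031654 to 19671869, but only 594381 to 6237428 of them lay outside ribosomal RNA. A level of 1 CPM (counts-per-million, on library sizes scaled by the TMM method over all 23 libraries) therefore stood for 1.7 to 31.81 counts, and members with few counts are measured coarsely. Chat, the acetylcholine-synthesising enzyme, checked the Cre label: it was at 39.1 to 68.5 CPM in wild-type Cre and 13.9 to 50.9 CPM in mutant Cre libraries, against 1.18 to 6.01 and 1.06 to 8.22 CPM without Cre, with no overlap in either genotype. Replicate 6 of the mutant Cre group stood apart. It had the lowest Chat (13.9 CPM) and choline transporter Slc5a7 (30.1 CPM) of the Cre libraries and the highest summed levels of oligodendrocyte (7270 CPM), meningeal fibroblast (600 CPM) and endothelial (273 CPM) markers among them. Wild-type no-Cre replicate 2 also differed from its group. Its Slc5a7 was at 51.4 CPM, where the group median was 11.1, and so above that of mutant Cre replicate 6.

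Isl1 and Isl2, paired LIM-homeodomain factors of all young motor neurons, and Mnx1 were high with Cre and close to absent without it. Isl1 (GRCm38 chr13:116298281-116309689, minus strand) was at 2.18, 3.69, 1.82, 5.06 and 3.87 CPM in the 5 wild-type Cre libraries. In the 6 wild-type no-Cre libraries it ranged from 0 to 0.725 CPM with a median of 0.0751, a total of 13 counts. Every wild-type Cre library was above every wild-type no-Cre library, and the log2 fold change was 4.46 (SE 0.81, edgeR adjusted p = 0.000385). Without wild-type no-Cre replicate 1, the highest of the background libraries, it was 5.26.

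Isl2 (chr9:55538672-55546180, plus strand) was at 4.37, 3.29, 3.56, 4.61 and 1.93 CPM in wild-type Cre libraries and between 0 and 0.12 CPM (median 0) without Cre. The groups did not overlap, and 4 of the 6 no-Cre libraries had no count at all. Its log2 fold change was 5.89 (SE 0.79, edgeR adjusted p = 2.97e-05). An antisense gene, Gm17226, overlaps Isl2, and reads from the pair cannot be told apart because the strand of the libraries is not given in the sources used here.

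Mnx1 (chr5:29473034-29478470, minus strand) had the sharpest contrast of the members in wild type, at 6.75, 3.03, 6.62, 6.73 and 5.35 CPM with Cre. Without Cre it ranged from 0 to 0.11 CPM (median 0.0199), 6 counts over 6 libraries. The groups were fully separate, and the log2 fold change was 6.53 (SE 0.66, edgeR adjusted p = 3e-06).

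Lhx3 and Lhx4, sister LIM-homeodomain factors of early and axial motor neurons, were also higher with Cre, Lhx4 against a visible background. Lhx4 (chr1:155698031-155751684, minus strand) was at 5.16, 3.9, 4.97, 4.91 and 2.73 CPM in wild-type Cre libraries and at 0 to 2.16 CPM (median 0.762) without Cre. Even the lowest Cre library lay above the highest no-Cre library, and the log2 fold change was 2.25 (SE 0.62, edgeR adjusted p = 0.00744). Scaling by library totals alone ended this call (2.08, adjusted p = 0.149 with edgeR).

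Lhx3 (chr2:26200212-26208289, minus strand) was the scarcest of the members that were higher with Cre, with 7 to 19 counts per wild-type Cre library. It was at 1.39, 0.351, 1.57, 0.529 and 1.36 CPM with Cre and at 0 to 0.257 CPM (median 0) without. These groups did not overlap in CPM either, but in counts and in TPM they did. No-Cre replicate 5 had 7 counts (0.4 TPM), and no-Cre replicate 4 was at 1.34 TPM, against 0.29 to 1.13 TPM with Cre. Lhx3 failed the filter on low counts in the fit of the wild-type groups. It was tested only where all 23 libraries entered one fit, and there its log2 fold change was 3.18 (SE 0.92, edgeR adjusted p = 0.00738). The antisense gene Gm27196 overlaps Lhx3, with the same limit as for Isl2.

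Lhx1, Foxp1, Aldh1a2 and Etv4, the genes of particular columns and pools, showed no such separation: the background held Lhx1, Foxp1 and Etv4 at higher medians than the Cre libraries, and Aldh1a2 at a somewhat lower one. Lhx1 (chr11:84518284-84525535, minus strand) was at 0.198, 0.702, 0, 0.378 and 0.114 CPM with Cre and at 0 to 2.17 CPM (median 1.31) without. Its log2 fold change of -1.88 (SE 1.01) did not pass the test (edgeR adjusted p = 0.136). Without wild-type no-Cre replicate 2, in which Lhx1 had no count, it was -2.11 and passed (edgeR adjusted p = 0.0482).

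Foxp1 (chr6:98925338-99522721, minus strand) was at 5.36, 5.53, 2.65, 4.99 and 4.32 CPM with Cre. Without Cre it ranged from 1.54 to 29.9 CPM with a median of 8.73. The ranges overlap because one no-Cre library, replicate 2, was the lowest of all 11; the other 5 no-Cre libraries were each above every Cre library. The log2 fold change was -1.14 (SE 0.52, edgeR adjusted p = 0.0827), and without that library it was -1.38 with an edgeR adjusted p of 0.00933. Without wild-type no-Cre replicate 1, at 29.9 CPM, it was -0.58 with an edgeR adjusted p of 0.291. With the leading number of the sample titles as a block it was -1.54 (edgeR adjusted p = 0.011). Foxp1 overlaps a protein-coding model on its own strand, Gm20696, and is the only member whose deposited counts were not all whole numbers.

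Aldh1a2 (chr9:71215789-71296243, plus strand) was at 0.794, 3.95, 2.48, 3.85 and 3.07 CPM with Cre and at 0 to 6.82 CPM (median 2.34) without, and the groups overlapped widely. Its log2 fold change was 0.19 (SE 0.7, 95% interval -1.27 to 1.66, edgeR adjusted p = 0.839). Etv4 (chr11:101769742-101785371, minus strand) had no count in 3 of the 5 wild-type Cre libraries and 5 counts in each of the other two, whereas all 6 no-Cre libraries had 8 to 33. Like Lhx3 it was tested only in the fit of all 23 libraries, where it fell with Cre (log2 fold change -2.42, SE 0.96, edgeR adjusted p = 0.0388).

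In the fit of the wild-type groups, 7 of the 9 members passed the filter on low counts; 4 were called higher with Cre and 0 lower, while 20% of all genes tested were called higher and 25.9% lower. In the fit of all 23 libraries, which tested all 9 members, 5 were called higher and 2 (Foxp1 and Etv4) lower, beside 17.8% and 29.3% of all genes. Members present only in Cre libraries pass a count filter because of those libraries, so these counts describe the members and do not compare them with other genes. Within the 2 title numbers shared by the wild-type groups, Isl1, Isl2, Mnx1, Lhx3 and Lhx4 were also higher with Cre each time: on the log2(CPM + 1) scale the differences for Mnx1 were 2.8 in number 20302 and 2.37 in number 20401.

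**Figure D1:**
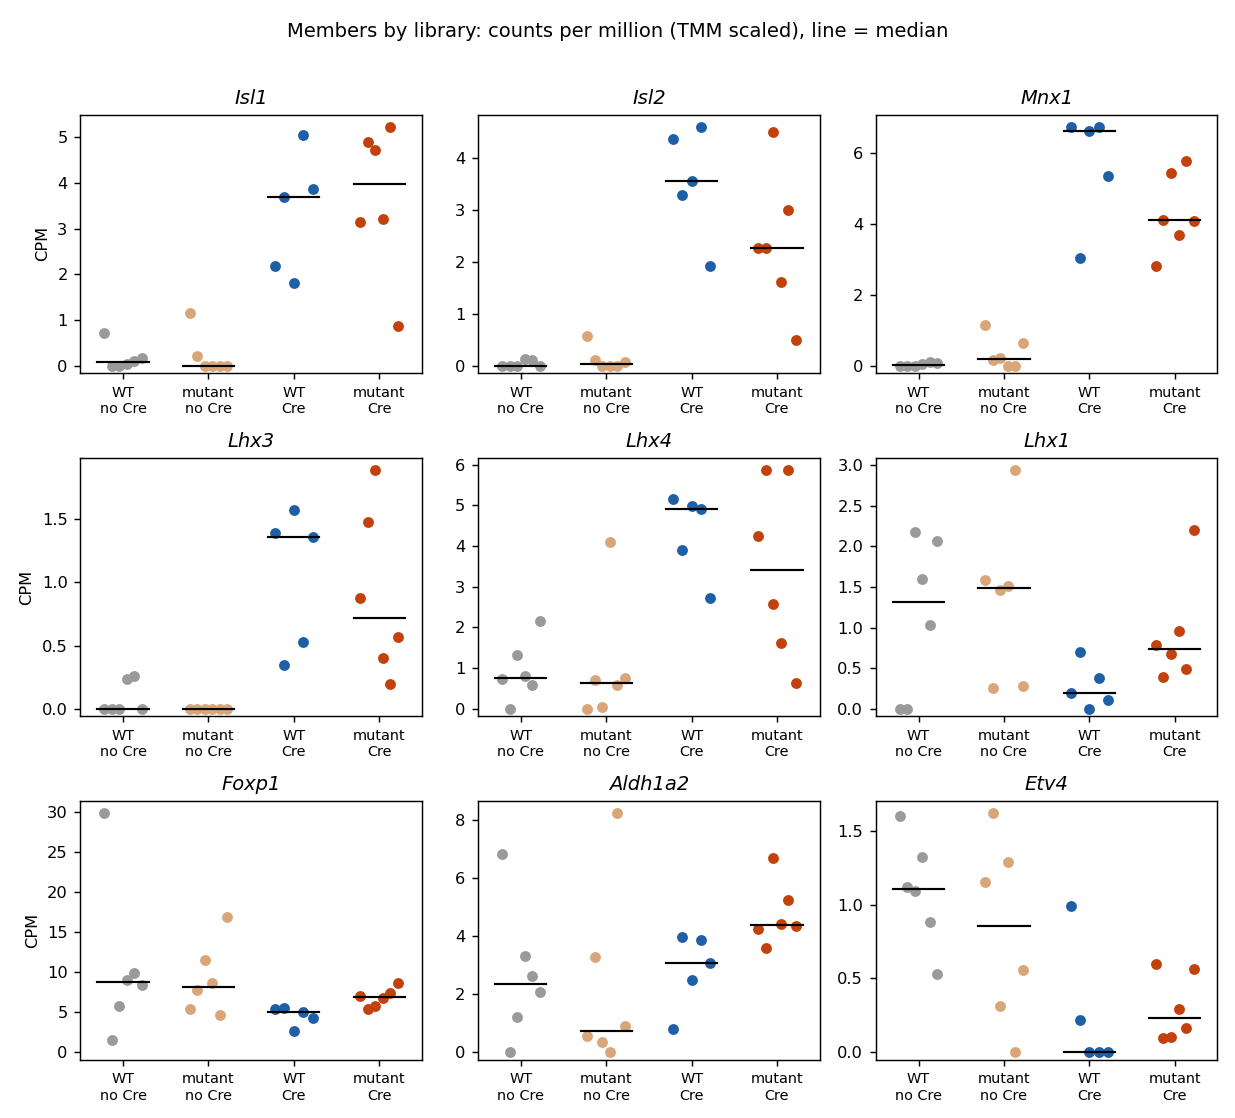
CPM of the 9 members in each of the 23 libraries (one point per library, horizontal line at the group median, 1 panel per gene with its own linear axis). Isl1, Isl2, Mnx1 and Lhx3 lie at or near 0 without Cre, Lhx4 is higher with Cre over a low background, and Lhx1, Foxp1, Aldh1a2 and Etv4 overlap between the groups.

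Because Isl1, Isl2, Mnx1 and Lhx4 rose with Cre and Aldh1a2 did not pass the test, the bases just upstream of their RefSeq starts are shown together. Each is taken from RefSeq on GRCm38.p6, 5′ to 3′ on the gene's strand, and stops at the transcription start or 1 base short of it where an annotated exon reaches further; the Isl2 and Lhx4 stretches lie inside longer GENCODE models of these genes. Capitals mark GC boxes, GGGCGG or its reverse complement CCGCCC.
Isl1 (chr13:116309690-116309938, minus strand): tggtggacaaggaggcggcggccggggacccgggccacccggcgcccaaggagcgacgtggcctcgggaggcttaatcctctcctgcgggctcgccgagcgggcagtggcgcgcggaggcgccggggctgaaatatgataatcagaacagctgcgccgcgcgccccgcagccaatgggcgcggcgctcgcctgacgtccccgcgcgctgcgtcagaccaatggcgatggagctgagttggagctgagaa
Isl2 (chr9:55540899-55541147, plus strand): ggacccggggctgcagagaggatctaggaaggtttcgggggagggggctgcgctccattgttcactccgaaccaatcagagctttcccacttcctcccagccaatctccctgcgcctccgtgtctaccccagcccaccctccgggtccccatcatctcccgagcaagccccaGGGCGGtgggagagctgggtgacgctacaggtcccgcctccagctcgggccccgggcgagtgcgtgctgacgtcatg
Mnx1 (chr5:29478471-29478720, minus strand): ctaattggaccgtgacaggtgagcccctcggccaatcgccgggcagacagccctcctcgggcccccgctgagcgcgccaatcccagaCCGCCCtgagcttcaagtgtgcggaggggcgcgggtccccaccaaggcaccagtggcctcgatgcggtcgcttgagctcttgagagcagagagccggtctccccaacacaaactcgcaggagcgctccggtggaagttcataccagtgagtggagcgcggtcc
Lhx4 (chr1:155742028-155742277, minus strand): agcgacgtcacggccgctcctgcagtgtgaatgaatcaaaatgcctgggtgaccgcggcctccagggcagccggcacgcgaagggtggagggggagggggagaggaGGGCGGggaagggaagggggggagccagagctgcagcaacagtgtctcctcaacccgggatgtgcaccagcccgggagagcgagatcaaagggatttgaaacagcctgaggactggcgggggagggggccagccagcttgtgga
Aldh1a2 (chr9:71215539-71215788, plus strand): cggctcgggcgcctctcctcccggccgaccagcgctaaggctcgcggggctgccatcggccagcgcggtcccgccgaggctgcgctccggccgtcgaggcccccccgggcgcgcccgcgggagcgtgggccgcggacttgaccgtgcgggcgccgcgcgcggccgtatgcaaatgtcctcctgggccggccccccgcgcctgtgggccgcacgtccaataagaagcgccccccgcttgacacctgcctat
Across the members, 8 of 9 had an entry, with 11 windows of 250 bases between them. A GC box was found in 7 of the 11 windows, against 32.7% of all 32851 windows of that length searched on both strands. The homeodomain core TAATTA occurred in 1 of the 11 (the middle of the Foxp1 starts) and in 4.84% of all windows, and the E-box CAGCTG in 1 (Isl1) and in 13.0% of all. The members' windows were rich in G and C: 10 of the 11 held 60.8% to 77.6%, where the median of all windows was 52.4%. Both a member that rose with Cre (Isl1, 71.2%) and one that did not pass the test (Aldh1a2, 77.6%) held no GC box, so the motif did not separate them.

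In GarsC201R/+ mice Isl1, Isl2, Mnx1 and Lhx3 rose with Cre as in wild type, and Lhx4 did not pass the test. Isl1 ranged from 0.878 to 5.24 CPM with Cre (median 3.97) and from 0 to 1.15 CPM without (median 0), and rose by a log2 fold change of 4.04 (SE 0.89, edgeR adjusted p = 0.00256). Mnx1 ranged from 2.8 to 5.79 CPM with Cre (median 4.1) and from 0 to 1.15 CPM without (median 0.187), and rose by 3.4 (SE 0.58, edgeR adjusted p = 0.000381). For Mnx1 the 2 groups were separate, while for Isl1 mutant Cre replicate 6 (0.878 CPM, 14 counts) fell below the highest background library (1.15 CPM, 8 counts). Without that background library, mutant no-Cre replicate 1, the changes were 5.87 for Isl1 and 4.12 for Mnx1, and scaling by library totals alone gave 5.80 and 4.83.

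Isl2 and Lhx3 failed the filter in the fit of the mutant groups and were tested in the fit of all 23 libraries. Isl2 ranged from 0.502 to 4.51 CPM with Cre (median 2.27) and from 0 to 0.574 without (median 0.035), with only replicate 6 inside the background range, and its log2 fold change was 4.24 (SE 0.82, edgeR adjusted p = 0.000238). Lhx3 had 6 to 45 counts in each mutant Cre library and 0 counts in all 6 mutant no-Cre libraries. Set against a floor of 3 counts over that group, its pooled level of 0.871 CPM was at least 20.3-fold higher with Cre (edgeR adjusted p = 0.000476 in the fit of all 23 libraries).

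Lhx4 ranged from 0.627 to 5.87 CPM in mutant Cre (median 3.41) and from 0 to 4.1 CPM in mutant no-Cre libraries (median 0.648). The groups overlapped, with 3 of 6 Cre libraries above the highest background value, and the log2 fold change of 1.82 (SE 0.84) did not pass (edgeR adjusted p = 0.105). This turned on 2 libraries. Without mutant no-Cre replicate 4, the highest of its group, it was 3.13 (edgeR adjusted p = 0.00647), and without mutant Cre replicate 6, the lowest of its group, it was 2.22 (edgeR adjusted p = 0.044).

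The column and pool genes were again not separated from the background in mutants. Aldh1a2 ranged from 3.59 to 6.66 CPM with Cre (median 4.36) and from 0 to 8.22 CPM without (median 0.742), a log2 fold change of 1.33 (SE 0.71, edgeR adjusted p = 0.158). Its highest background value came from mutant no-Cre replicate 5, the library with the fewest usable counts, where 8.22 CPM stood for 14 counts; without it the change was 2.17 (edgeR adjusted p = 0.0103). With all libraries kept, limma-voom gave 2.16 (adjusted p = 0.00172) and library totals 2.78 (edgeR adjusted p = 0.0105). DESeq2 did not call Aldh1a2 (1.26, adjusted p = 0.127). Foxp1 (-0.51, SE 0.3, edgeR adjusted p = 0.205) and Lhx1 (-0.43, SE 0.64, edgeR adjusted p = 0.629) overlapped between the groups, and Etv4, at a median of 0.228 CPM with Cre and 0.854 without, was not called in the fit of all 23 libraries (-1.49, SE 0.81, edgeR adjusted p = 0.165).

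Of the 6 members that passed the filter in mutants, 2 were called higher and 0 lower, where 14.1% of all genes tested were called higher and 19.2% lower; in the fit of all 23 libraries 4 of 9 were higher and 0 lower, beside 12.8% and 18.8% of all genes. Without each library in turn the count ran from 2 to 5. It was 4 without mutant no-Cre replicate 1, 2, 3 or 6 or mutant Cre replicate 6, and 5 without mutant no-Cre replicate 4 or 5.

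**Figure D2:**
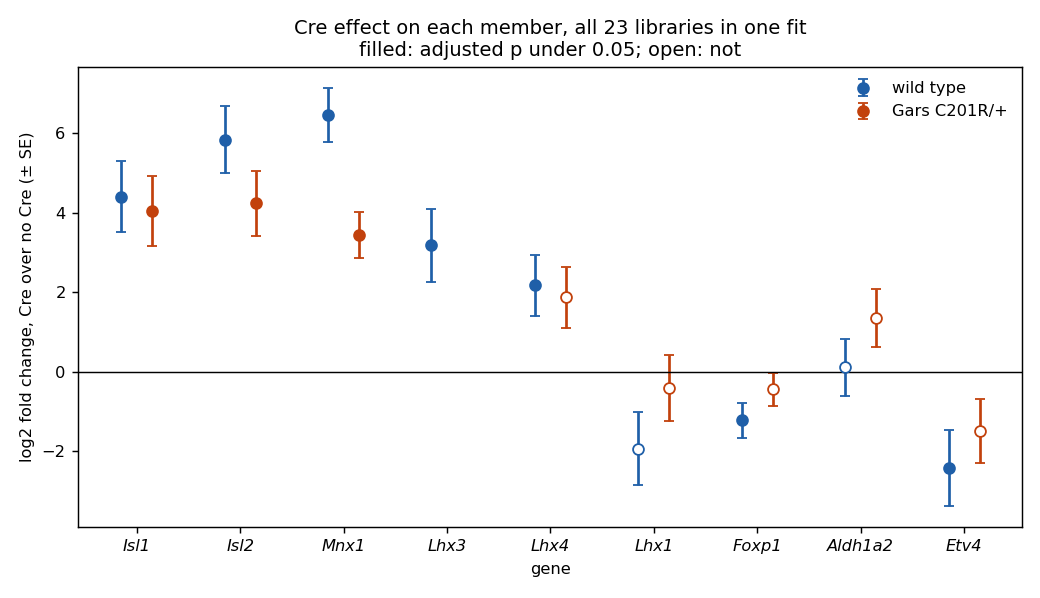
Log2 fold change of each member with Cre over without, with its SE, in Gars+/+ (blue) and GarsC201R/+ (orange) libraries, from one edgeR fit of all 23 libraries. Filled points passed an adjusted p of 0.05; Lhx3 in mutants is left out because its no-Cre libraries all held 0 counts.

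Whether the Cre effect itself differed between genotypes was tested for all 9 members in the fit of all 23 libraries, and 0 were called by edgeR, against 0.0207% of all genes; DESeq2 and limma-voom also called 0. At an unadjusted p under 0.05 there were 2 of 9, Mnx1 and Lhx3, beside 1524 of 14468 genes. For Mnx1 the log2 Cre effect in mutants minus that in wild type was -3.03 (SE 0.86, unadjusted p = 0.00149, edgeR adjusted p = 0.327). That difference lay mostly in the background: mutant over wild type was -0.39 with Cre and 2.63 without it in the fit of all 23 libraries. Mnx1 had 6 counts over the 6 wild-type no-Cre libraries and 25 over the 6 mutant no-Cre libraries. Scaling by library totals alone gave -1.37 for the difference of the Cre effects (edgeR unadjusted p = 0.235). For Lhx3 the fitted difference rests on a group with no counts, and its size is not given.

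The comparison that the series was made for sets GarsC201R/+ against Gars+/+ in the Cre libraries, before disease onset. Of the 9 members 8 passed the filter there, and 0 were called by edgeR, DESeq2 or limma-voom; edgeR called 0.331% of all genes tested. That background is itself unstable: of all genes edgeR called 41, but 1054 without wild-type Cre replicate 2, while DESeq2 called 413 and limma-voom 868, and the members' count was 0 in each. The general motor neuron factors had log2 fold changes near 0 or a little below: 0.13 for Isl1 (95% interval -0.7 to 0.96), -0.59 for Isl2 (-1.47 to 0.29), -0.4 for Mnx1 (-0.98 to 0.18), -0.18 for Lhx3 (-1.47 to 1.11) and -0.33 for Lhx4 (-1.26 to 0.6). In this fit of the Cre libraries alone, the intervals exclude a doubling of Isl1, Isl2, Mnx1 and Lhx4 but not a halving of Isl2 or Lhx4. For Lhx3 they exclude neither. In the fit of all 23 libraries the intervals were wider. They ran from -1.34 to 1.63 for Isl1, -1.9 to 0.73 for Isl2, -1.4 to 0.62 for Mnx1 and -1.79 to 1.16 for Lhx4. There a doubling of Isl1 or Lhx4 was not excluded, nor a halving of any of them. Scaling by library totals alone, which moved the median of all genes to 0.79, turned Isl2, Mnx1, Lhx3 and Lhx4 positive (0.25, 0.58, 0.85 and 0.61). In whole precipitates, fewer motor neurons and less of a transcript in each of them cannot be told apart.

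Mutant Cre replicate 6 was the lowest of all 11 Cre libraries for Isl1, Isl2 and Lhx4. Without it the log2 fold changes were 0.32 for Isl1, -0.39 for Isl2 and -0.12 for Lhx4, and with both libraries of its title number, 18405, left out they were 0.39, -0.26 and 0.08. Mnx1 did not follow this pattern, at 4.08 CPM in replicate 6 and a group median of 4.1.

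Lhx1, Foxp1 and Aldh1a2 lay on the other side, higher in mutants at an unadjusted p under 0.05 (3 of 8 members, and 2113 of 12399 genes) but not after adjustment. Aldh1a2 was at 0.794 to 3.95 CPM in wild type (median 3.07) and 3.59 to 6.66 CPM in mutants (median 4.36), and 5 of 6 mutant libraries were above every wild-type library. Its log2 fold change was 0.7 (SE 0.31, 95% interval 0.04 to 1.37, edgeR adjusted p = 0.277). Foxp1 was at 2.65 to 5.53 CPM in wild type (median 4.99) and 5.37 to 8.66 CPM in mutants (median 6.86), again with 5 of 6 mutant libraries above every wild-type one (0.58, SE 0.22, 95% interval 0.1 to 1.06, edgeR adjusted p = 0.236). Lhx1 was at 0 to 0.702 CPM in wild type (median 0.198) and at 0.396 to 2.2 CPM in mutants (median 0.734), with 3 of 6 above every wild-type library (1.55, SE 0.7, 95% interval 0.06 to 3.03, edgeR adjusted p = 0.28).

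Background precipitates held these 3 as well, Aldh1a2 in mutants at a lower median than with Cre (0.742 against 4.36 CPM), and the summed markers of other cells reached higher levels in mutant Cre libraries. All 12 endothelial and pericyte markers were detected in both groups, summing to 20.4 to 86.7 CPM in wild-type and 22.4 to 273 CPM in mutant Cre libraries. Of 11 meningeal fibroblast markers 10 were detected in wild type (Slc22a6 was at 0) and all in mutants, summing to 18.7 to 91.8 and 20.6 to 600 CPM. The 12 oligodendrocyte markers summed to 556 to 3080 and 819 to 7270 CPM. With the mean of the oligodendrocyte list as a covariate the log2 fold changes were 0.68 for Aldh1a2, 0.43 for Foxp1 and 0.95 for Lhx1. Without replicate 6 they were 0.71, 0.49 and 1.07. Title number 18405 occurs only among mutant libraries. Without it they were 0.72, 0.46 and 0.88, with edgeR unadjusted p of 0.0519, 0.0771 and 0.221. The part of the other cells' RNA in the 3 values was not otherwise tested.

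Within the 2 title numbers that both genotypes share, 2 libraries against 2 each, Aldh1a2 was higher in mutants by 0.38 (number 20302) and 1.21 (20401) on the log2(CPM + 1) scale. For Foxp1 these differences were 0.69 and 0.23, and for Lhx1 0.58 and 0.15. The labels do not say what the number stands for. Etv4 failed the filter, at a median of 0 CPM in wild-type and 0.228 CPM in mutant Cre libraries.

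**Figure D3:**
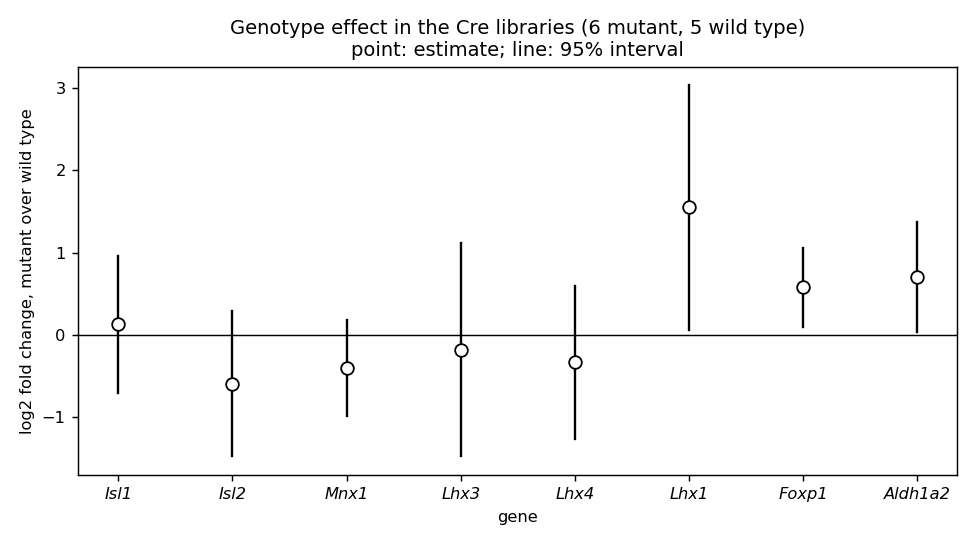
Log2 fold change of mutant over wild type in the Cre libraries for the 8 members tested (point) with its 95% interval (line). The intervals of Lhx1, Foxp1 and Aldh1a2 lie just above 0 before adjustment, the other 5 span it, and none was called after adjustment over 12399 genes.

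A level relative to other motor neuron transcripts of the same library does not depend on library scaling. Each member's count was therefore set against the summed counts of Chat and Slc5a7. The ratio does depend on these 2 genes. Chat had a log2 fold change of -0.75 in mutant over wild-type Cre libraries (SE 0.28, edgeR unadjusted p = 0.0163, adjusted p = 0.22). That of Slc5a7 was 0.09 (SE 0.34). Per 1000 of these cholinergic counts, Isl1 was at 15.7, 21.4, 11.1, 37.1 and 23.2 in wild-type Cre libraries and at 19.1 to 40.1 in mutant ones (median 25.2). Isl2 was at 30.7, 19.1, 21.5, 33.8 and 11.8 against 12.1 to 25.9 (median 13.7), and Mnx1 at 47.0, 17.6, 39.8, 49.2 and 32.0 against 17.0 to 93.4 (median 28.6). In all 3 the genotypes overlapped.

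By this ratio 0 of 8 members were called between genotypes in exact permutation tests over the 462 possible regroupings. These tests called 0% of the 12399 genes (993 had an unadjusted p under 0.05). Their smallest possible p, 0.00216, can pass adjustment over 12399 genes only if many genes share it. The absence of calls therefore does not show that the ratios were alike. The log2 differences, mutant minus wild type, were 0.363 for Isl1 (exact p = 0.286), -0.465 for Isl2 (exact p = 0.16), -0.0543 for Mnx1 (exact p = 0.909), -0.0531 for Lhx3 (exact p = 0.948) and -0.319 for Lhx4 (exact p = 0.299), where the median of all genes was 0.402. Aldh1a2, at 6.13, 22.9, 15.1, 28.3 and 18.5 in wild type and 21.2 to 99.1 in mutants (median 32.0), gave 1.2 (exact p = 0.039, adjusted p = 0.612). Without title number 18405 it gave 0.71 (exact p = 0.151). The differences were 2.13 for Lhx1 (exact p = 0.0628) and 0.923 for Foxp1 (exact p = 0.119), and 1.15 and 0.29 without that number.

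In replicate 6 of the mutants the members did not all move with the cholinergic genes. Isl1, Isl2 and Lhx4 stayed within the range of the other Cre libraries there, at 20.7, 12.1 and 15.0 per 1000 cholinergic counts. Mnx1, at 93.4, was about as high in CPM as in the other mutants while Chat and Slc5a7 were low, so its ratio was the highest of all 11. Lhx1 (50.6), Foxp1 (197) and Aldh1a2 (99.1), which the no-Cre libraries held as well, also had their highest ratios in this library.

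**Figure D4:**
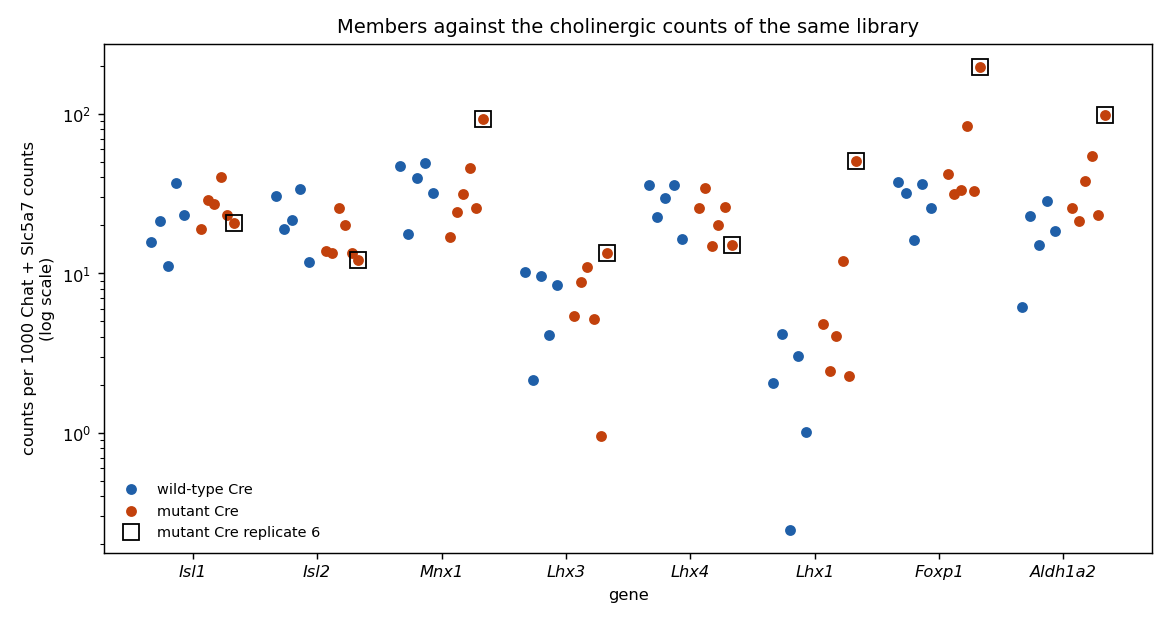
Counts of 8 members per 1000 counts of Chat and Slc5a7 in the same library (log axis), one point per wild-type Cre (blue) or mutant Cre (orange) library; squares mark mutant Cre replicate 6. The genotypes overlap for every member, and replicate 6 is highest for Mnx1, Lhx3, Lhx1, Foxp1 and Aldh1a2.

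Levels of different genes can be set side by side only per transcript length, as transcripts-per-million (TPM), and these shift with the transcript forms that the authors' quantification assigned: the effective length of Lhx3 ran from 342.0 to 2034.5 bases between libraries. In wild-type Cre libraries the median TPM was highest for Mnx1 (3.27), followed by Isl1 (3.05), Lhx4 (2.69), Isl2 (2.26), Foxp1 (1.84), Aldh1a2 (1.27), Lhx3 (0.55), Lhx1 (0.08) and Etv4 (0). The range of every gene overlapped that of the next in this order. In mutant Cre libraries the order of medians was Isl1 (8.16), Foxp1 (6.26), Aldh1a2 (5.16), Mnx1 (4.26), Isl2 (3.67), Lhx4 (2.29), Lhx3 (1.61), Lhx1 (0.59) and Etv4 (0.505), again with overlap between all neighbours. These TPM are not TMM scaled and do not compare the genotypes. Isl1 in wild-type Cre replicates 1 and 2 was at 1.16 and 8.51 TPM but at 2.18 and 3.69 CPM. Background held Foxp1 and Aldh1a2 at median TPM of 4.78 and 1.76 in wild type, and 3.75 and 0.43 in mutants.

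Between the paired genes, the TPM of Isl1 exceeded that of Isl2 in 4 of 5 wild-type Cre libraries (ratio 0.975 to 3.67, median 1.26) and in 6 of 6 mutant ones (1.55 to 4.34, median 2.02). Lhx4 exceeded Lhx3 in 5 of 5 wild-type Cre libraries (1.87 to 9.66, median 4.77) and in 4 of 6 mutant ones (0.488 to 12.9, median 1.39). In no-Cre libraries most of these genes had too few counts for a ratio.

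Genotype was also compared among the background precipitates, where only Lhx4, Foxp1 and Aldh1a2 passed the filter. None of the 3 was called by edgeR, DESeq2 or limma-voom, and edgeR called 0% of all genes (565 of 12588 had an unadjusted p under 0.05). At an unadjusted p under 0.05 edgeR had 0 of the 3, and limma-voom had Aldh1a2 (-1.47, unadjusted p = 0.0208, adjusted p = 0.69). The log2 fold changes were 0.04 for Lhx4 (95% interval -1.99 to 2.08), -0.21 for Foxp1 (-1.26 to 0.84) and -0.44 for Aldh1a2 (-2.41 to 1.53). In the fit of all 23 libraries 0 of 9 members were called, beside 0% of all genes. There 2 members had an unadjusted p under 0.05, beside 1294 of 14468 genes. Mnx1 was higher in mutants there (2.63, SE 0.71, unadjusted p = 0.000892, edgeR adjusted p = 0.382), on 6 counts in wild-type and 25 in mutant no-Cre libraries. Lhx3 was at 13 counts in wild-type and 0 in mutant no-Cre libraries (unadjusted p = 0.0113, edgeR adjusted p = 0.475).

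The partners of these factors were followed in lists that were drawn up for this purpose. Of 10 LIM cofactors, proteins that bridge or regulate LIM-homeodomain complexes, 8 were tested in wild type: Ssbp3 rose with Cre (1.93, SE 0.3), and Ssbp2 (-1.34), Rlim (-1.04) and Lmo3 (-1.6) fell. The bridging protein Ldb1 itself was at 0.46 and not called (edgeR adjusted p = 0.296). The median of the 8 was -0.22, and that of all genes -0.14; for these lists too, 20% of all genes tested rose and 25.9% fell.

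Of 18 genes of the GDNF and ETS pathway, which acts on motor neurons from the muscle, 14 were tested, 4 rose and 3 fell (median -0.19). Ret, the GDNF receptor kinase, rose by 4.07 (SE 0.26, edgeR adjusted p = 4.7e-08), its co-receptor Gfra1 by 1.78 (SE 0.29) and the pool cadherin Cdh6 by 3.44 (SE 0.41), while the semaphorin receptor Plxnd1 fell by 2.53. Among 17 retinoid genes 9 were tested, 2 rose (the receptors Rara, 1.75, and Rxra, 1.33) and 2 fell, among them the enzyme Aldh1a1 (-1.33), with a median of 0.65.

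Other transcription factors of motor neurons and their precursors mostly lay on the other side. Of 24 further motor neuron factors 19 were tested, 2 rose and 10 fell (median -1.86); Zeb2 (-2.82), Ebf3 (-3.05), Ebf1 (-3.23) and Etv1 (-2.22) had the smallest p. The 2 that rose were Esrrg (1.21), a nuclear receptor of gamma motor neurons, and Etv5 (1.27), named after their values were seen. Of 13 progenitor factors 8 were tested, of which 1 rose and 6 fell (median -2.63): Olig1 (-2.68), Olig2 (-2.7), Pax6 (-3.12) and Sox2 (-3.46) fell, genes that glia also use, and Irx3 (2.66, also named after its value was seen) rose. Beside them all 12 oligodendrocyte markers fell (median -2.99), and 8 of 10 astrocyte markers fell and 1 rose (median -2.38).

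Only 5 of 32 interneuron transcription factors passed the filter and 0 were called by edgeR; Pax8 (-2.34), Foxp2 (-2.17), Sall3 (-1.96) and Pax2 (-1.52) had unadjusted p of 0.0273, 0.0278, 0.0284 and 0.0364. Their 32 genes summed to 6.35 to 11.6 CPM in wild-type Cre and 18.1 to 41.2 CPM in wild-type no-Cre libraries.

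In mutants Ret (2.95, SE 0.38), Cdh6 (2.27, SE 0.41), Gfra1 (1.37, SE 0.34), Ssbp3 (1.66, SE 0.28) and Irx3 (3.14, SE 0.58) rose with Cre as well, with edgeR adjusted p from 3.89e-05 to 0.00576. By list, 4 of 10 tested LIM cofactors rose and 1 fell in mutants, 4 of 13 GDNF and ETS genes rose and 1 fell, 2 of 13 retinoid genes rose and 0 fell, 1 of 22 further motor neuron factors rose and 8 fell, 1 of 10 progenitor factors rose and 1 fell, and 0 of 5 interneuron factors rose and 2 fell. Among glial markers, 5 of 12 of oligodendrocytes and 4 of 10 of astrocytes fell. These counts stand beside 14.1% of all genes tested that rose in mutants and 19.2% that fell. Between genotypes in the Cre libraries, 0 of the 71 tested genes of these 6 lists were called by edgeR, and 12 had an unadjusted p under 0.05. Of all 12399 genes tested there, 0.331% were called and 2113 had an unadjusted p under 0.05.

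**Figure D5:**
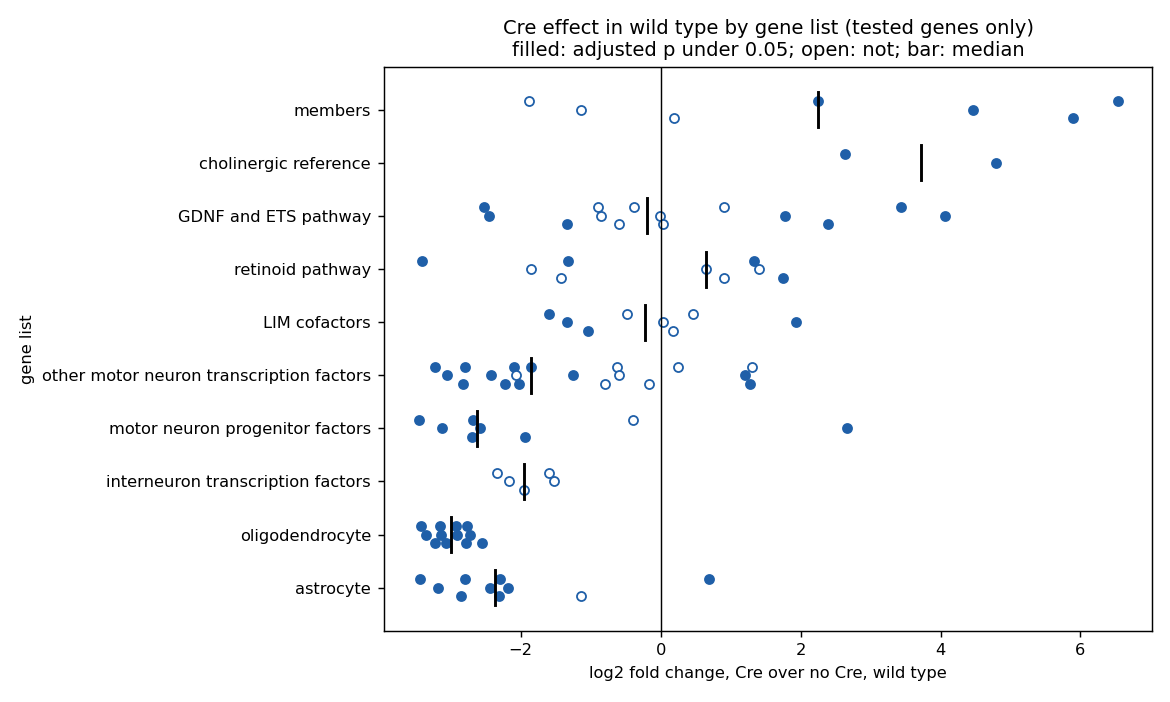
Log2 fold change with Cre over without in wild type for each tested gene of the members, of 7 further gene lists and of 2 glial marker lists (filled points passed an adjusted p of 0.05, bars are list medians). Isl1, Isl2 and Mnx1 lie far to the right with Chat and Ret, and glial markers and precursor factors lie mostly left of 0.

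Over the 23 libraries the genes whose log2(CPM + 1) followed each member most closely, among 11229 genes, were Ndrg4 for Isl1 (Pearson r = 0.94) and Isl2 (0.96), Anxa6 for Mnx1 (0.97), Cacybp for Lhx3 (0.89) and Trhr, the receptor of thyrotropin-releasing hormone, for Lhx4 (0.89). For the column and pool genes they were Rasip1 for Lhx1 (0.86), Myom1 for Foxp1 (0.87), Amz2 for Aldh1a2 (0.87) and Nup210 for Etv4 (0.85). The libraries share 2 classes, with and without Cre, so that for the first 5 members these values describe mainly that contrast. Each r is the highest among 11229 genes. How far single libraries carry those of the column and pool genes was not tested. Foxp1 was at 29.9 CPM in wild-type no-Cre replicate 1, where the next library of its group had 9.89.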

How the data were processed

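Spinal cord ribosome precipitates from mice aged 2 weeks were compared in 4 groups taken from the source labels; replicate numbers follow the deposited order. The members and gene lists were chosen with earlier results of these data known. Of the cholinergic reference, Chat and Slc5a7 were found and Slc18a3 was not matched.

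Reads were aligned with Bowtie2 2.2.0 and quantified with RSEM 1.2.12, per the submitters' processing notes. The deposited expected counts are estimated reads per gene, not normalised for depth. The deposited TPM is the authors' length-corrected level. The FPKM that the authors deposited beside it entered no analysis. The other columns the authors deposited give length and effective length in bases. Positions come from GENCODE M21 (GRCm38), which held 37607 of the 38924 identifiers; the authors' own build is not given in the sources used here.

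Expected counts were rounded and tested in R 4.3.3 with edgeR 4.0.16: filterByExpr (minimum count 10, minimum total 15), TMM scaling, quasi-likelihood tests, Benjamini-Hochberg adjustment over all genes tested, threshold 0.05. Each fit held the libraries of its own comparison. The difference of the Cre effects, and a second version of the other fits, used all 23. SE is the absolute log2 fold change over the root of the F statistic, and intervals are 95%. Ratios to the summed Chat and Slc5a7 counts, with 0.5 added to each, were compared by two-sided exact permutation tests for all 12399 genes, whose smallest possible p is 0.00216. Scripts were tested on simulated data. Likeness is the Pearson r of log2(CPM + 1).

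Named genes were the 9 members, the cholinergic reference, up to 4 genes per list with the smallest p in the wild-type Cre effect, and the gene most like each member. Some genes that this rule names are not reported here. Results were recomputed with DESeq2 1.42.0, with limma-voom and quality weights (limma 3.58.1), with RLE factors or library totals as the scaling, with no filter, with all 23 libraries in one fit, with ribosomal RNA genes left out, with the leading title number as a block, without title number 18405, with the oligodendrocyte list as a covariate, with other denominators and pseudocounts for the ratio, and without each library.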

Additional observations from a re-analysis of the deposited data

Results flagged for a closer look

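Dixon's criterion marks a library far from the rest, and normally distributed values meet it in about 1 of 20 sets. Sets with few counts and many zeros, as several are here, need not follow that rate. In 35 sets of CPM values (a member in 1 group of 5 or 6 libraries, with sets that are all 0 left aside), 7 held a highest library that met the criterion. Of these, 4 rest on 4 to 8 counts: Isl1 at 0.725 CPM (5 counts) in wild-type no-Cre replicate 1 and at 1.15 CPM (8 counts) in mutant no-Cre replicate 1, Isl2 at 0.574 CPM (4 counts) in the same mutant library, and Etv4 at 0.992 CPM (5 counts) in wild-type Cre replicate 1. Lhx4 was at 4.1 CPM (19 counts) in mutant no-Cre replicate 4, where the next library of the group had 0.77 CPM. Foxp1 was at 29.9 CPM (206 counts) in wild-type no-Cre replicate 1, against 9.89 CPM in the next. Lhx1 was at 2.2 CPM (35 counts) in mutant Cre replicate 6, the library with the lowest Chat of its group, against 0.952 CPM in the next.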

How the results depend on the processing

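The calls of Isl1, Isl2 and Mnx1 in the wild-type Cre effect held under all alternatives run, with log2 fold changes of 3.8 to 5.26, 5.27 to 6.31 and 6.11 to 6.9. The number of members called there was 4, but 7 with all 23 libraries in one fit, 6 with limma-voom, 5 with no filter, 5 with the title number as a block, 3 by library totals only and 4 to 6 without each library. In mutants it was 2, but 4 by library totals only, 5 with limma-voom, 5 without a filter, 4 with all 23 libraries in one fit and 2 to 5 without each library, partly because other filters test more members. The counts for the genotype effects and the difference of the Cre effects were 0 under all alternatives run.

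Several values that were not called changed sign; the cause was not tested. Scaling by library totals shifted the median over all genes to 1.13 in the mutant Cre effect, 0.79 in the genotype effect with Cre, -0.35 without Cre and 1.18 in the difference of the Cre effects, and gave 1.14 for Lhx1 and 0.52 for Foxp1 in the mutant Cre effect, 0.25 for Isl2, 0.58 for Mnx1, 0.85 for Lhx3 and 0.61 for Lhx4 in the genotype effect with Cre, -0.96 for Lhx4 without Cre, and 1.08 for Isl1, 0.08 for Isl2 and 1.57 for Lhx4 in the difference of the Cre effects. Limma-voom gave 0.07 for Lhx1 in the mutant Cre effect, -1.16 for Lhx4 and 0.18 for Foxp1 in the genotype effect without Cre, and 0.20 for Isl1 and 0.97 for Lhx4 in the difference of the Cre effects. Lhx4 without Cre was -0.03 with no filter and -0.01 with all 23 libraries in one fit. Leaving out title number 18405 gave 0.11 for Lhx3 and 0.08 for Lhx4 in the genotype effect with Cre and 0.06 for Lhx4 in the difference of the Cre effects, and the oligodendrocyte covariate gave 0.34 for Lhx3 with Cre. The ratio to Chat alone was 0.04 for Isl2, 0.45 for Mnx1, 0.45 for Lhx3 and 0.18 for Lhx4, and in TPM it was 0.02 for Mnx1 and 0.37 for Lhx3.

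Leaving out each library, the sign also changed for Aldh1a2 in the wild-type Cre effect (-0.06 to 0.63), Lhx1 in the mutant Cre effect (-0.71 to 0.02), Isl1 (-0.03 to 0.34) and Lhx3 (-0.51 to 0.05) in the genotype effect with Cre, Lhx4 (-1.19 to 0.51), Foxp1 (-0.48 to 0.40) and Aldh1a2 (-1.30 to 0.05) without Cre, Isl1 (-1.16 to 1.37) and Lhx4 (-0.76 to 0.88) in the difference of the Cre effects, and the ratios of Mnx1 (-0.35 to 0.14) and Lhx3 (-0.42 to 0.47).

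No paired analysis was possible because replicate numbers follow the deposited order and pair no libraries. The leading title number as a block gave -0.44 for Aldh1a2 in the wild-type Cre effect, 0.13 for Lhx4 in the genotype effect with Cre and -0.09 for Foxp1 in the difference of the Cre effects. It was not run for the mutant Cre effect or the genotype effect without Cre, whose groups share 1 number each. Depth limits Lhx3, Lhx1 and Etv4 most, with medians of 8, 1 and 0 counts in wild-type Cre libraries.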
